A study of Mus musculus with 8 samples.

Results

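The genes described here code for the proteins of the cytosolic ribosome and for their paralogs. They were chosen by gene symbol, as the genes whose symbol begins with Rps or Rpl followed by a number, by a p and a number, or by a closing a, without the S6 kinases and without pseudogenes named as such. The rule found 88 of the 14012 genes in the deposited table. Of these, 31 code for proteins of the small (40S) subunit and 46 for proteins of the large (60S) subunit, and these 77 are called the core genes below. Another 7 are paralogs of core genes: Rpl3l, Rpl22l1, Rps27l, Rpl39l, Rpl7l1, Rpl36al and Rps4l. The last 4 carry a matching symbol only: Rpl32l, the retrogenes Rpl37rt and Rps27rt, and Rps19bp1, which codes for a protein that binds RPS19 and is no part of the ribosome. The GENCODE M21 transcripts hold no protein-coding transcript of Rps4l, Rpl32l or Rpl37rt.

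The cytosolic ribosome translates all mRNAs made in the nucleus, including those for proteins that are later imported into mitochondria. Its small subunit reads the mRNA and its large subunit joins the amino acids, and each protein is needed in about equal amounts. The mRNAs of ribosomal proteins typically begin with a C followed by a run of pyrimidines, the terminal oligopyrimidine or TOP sequence, through which mTOR and LARP1 set their translation and stability. Most core genes have a single active copy, but a few have a paralog with a tissue pattern of its own. The best known in muscle is Rpl3l, which is made in striated muscle and takes the place of Rpl3, a protein of the peptidyl transferase centre.

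RNA was sequenced from the quadriceps femoris (QF), a large thigh muscle, of 4 mice labelled Grpel1 knockout and 4 labelled Grpel1 flox/flox control, with 1 library per mouse. GRPEL1 is the nucleotide exchange factor that lets mitochondrial HSP70 pull proteins into the matrix. All 8 mice carried floxed Grpel1 alleles, made from embryonic stem cells in C57BL/6NCrl host blastocysts. In the knockout (Grpel1skm-/-), a Cre-ERT2 recombinase under the human skeletal muscle α-actin promoter (HSA-Cre-ERT2) was switched on by tamoxifen injected in juvenile mice, which aims the deletion at muscle fibres and leaves the gene in other cells of the muscle. The controls were littermates. The labels give no treatment for any sample and the study calls its floxed littermates untreated. In these libraries an effect of tamoxifen or of Cre therefore cannot be told apart from the deletion. For body weight the study also followed floxed mice with only tamoxifen or only Cre, and wild type mice with both. Neither the sex nor the exact age of the 8 mice is given in the labels.

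The targeted gene was looked at first. Grpel1 was counted 861, 1087, 961 and 1017 times across control libraries 1 to 4, and 1658, 1570, 1461 and 1508 times across knockout libraries 1 to 4. After scaling to CPM (counts scaled to a common library size) with edgeR's TMM factors control muscle averaged 68.4 ± 3.04 CPM and knockout muscle 65.3 ± 6.11 CPM (SD, 4 mice each). The fitted log2 fold change was -0.07 ± 0.078 (SE, edgeR adjusted p = 0.487). The groups were not separated by this gene, and the deleted exons cannot be seen in counts per gene. Fgf21 and Gdf15, genes for secreted factors known to be made by muscle with impaired mitochondria, did separate them. Fgf21 had no count in any control library and 17.8 to 36.0 CPM across knockout libraries, and Gdf15 had at most 0.126 CPM across control libraries against 36.0 to 64.8 CPM across knockout libraries. Both were looked at after other results were known. The groups are named by their labels. The libraries held from 16017565 to 20361144 counts. Muscle fibre markers were abundant in all libraries, but their summed level was 217100 to 277300 CPM in the libraries labelled control and 68720 to 98340 CPM in those labelled knockout. Of 10 such markers 8 were lower and 1, the fast myosin gene Myh1, was higher. Ckm (muscle creatine kinase) had a log2 fold change of -1.75 and Acta1 (skeletal α-actin) of -1.53, both past the threshold (edgeR adjusted p = 2.419e-05 and 1.309e-05). Within a group, pairs of libraries differed by 16.8 to 42.5 times the sampling noise of their counts, so no library was a copy of another.

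The pair on which the results turn most is Rpl3l and Rpl3. Their coding sequences, from the GENCODE M21 transcripts of GRCm38, are 74.1% identical over 1206 aligned bases, and the longest stretch they share is 22 bases, shorter than the sequenced reads of 75 bases. The first 120 bases are shown because differences as frequent as these let reads of the genes be told apart, with the 31 bases that differ in capitals. Rpl3l lies on chromosome 17 (GRCm38, 24727829 to 24736149, plus strand) and Rpl3 on chromosome 15 (80077781 to 80083406, minus strand).
Rpl3l: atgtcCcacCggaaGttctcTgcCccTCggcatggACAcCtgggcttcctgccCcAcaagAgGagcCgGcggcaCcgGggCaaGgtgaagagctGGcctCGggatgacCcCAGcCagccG
Rpl3: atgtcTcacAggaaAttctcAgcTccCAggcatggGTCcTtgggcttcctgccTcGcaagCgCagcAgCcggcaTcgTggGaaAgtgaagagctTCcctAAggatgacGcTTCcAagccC

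The other set shows the start of some members' mRNAs, since these genes moved together. Each is 30 bases around a start site from RefSeq on GRCm38.p6, 15 before it and 15 from it on, on the strand of the gene. A run of at least 7 pyrimidines that begins with C is in capitals. The first 4 genes, for a stalk protein, S6, L15 and S27, hold such a run. The last 4, for a stalk base protein, the stalk protein P0, S28 and the muscle paralog, do not. The Rps28 window lies wholly upstream of the gene's deposited span, which ends at 33824498 on the minus strand. It may therefore miss the start of the counted mRNA.
Rplp2: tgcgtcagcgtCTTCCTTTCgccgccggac
Rps6: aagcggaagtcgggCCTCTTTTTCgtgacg
Rpl15: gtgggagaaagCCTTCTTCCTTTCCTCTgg
Rps27: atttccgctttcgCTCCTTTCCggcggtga
Rpl12: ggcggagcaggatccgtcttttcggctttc
Rplp0: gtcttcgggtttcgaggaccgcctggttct
Rps28: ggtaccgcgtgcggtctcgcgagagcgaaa
Rpl3l: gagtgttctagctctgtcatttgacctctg
These windows lie at chr7:141447636-141447665 (Rplp2), chr4:86857353-86857382 (Rps6), chr14:18270972-18271001 (Rpl15), chr3:90213634-90213663 (Rps27), chr2:32961697-32961726 (Rpl12), chr5:115559452-115559481 (Rplp0), chr17:33824548-33824577 (Rps28) and chr17:24727811-24727840 (Rpl3l).

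The first comparison asked how the mRNAs for the ribosome stood in muscle labelled knockout. All 31 small subunit genes and all 46 large subunit genes were higher than in muscle labelled control, at about 2-fold. Over all 88 members, 81 were higher and 1, Rpl3l, was lower. The threshold was an adjusted p under 0.01 in edgeR's quasi-likelihood test, with p-values adjusted by Benjamini-Hochberg over all 14012 genes. By the same rule 23.6% of all genes were higher and 21.1% lower. In either direction 82 of the 88 members were past it, as were 44.7% of all genes. A fold change of 2 or more was seen in 55 members, against 9.83% of all genes. In bulk tissue, fewer cells of a type and less RNA per cell cannot be told apart.

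The 2 subunits moved by like amounts. The median log2 fold change was 1.10 over the small subunit genes and 1.06 over the large subunit genes, beside 0.07 over all genes tested. Over the 77 core genes the median was 1.09, between quartiles of 0.94 and 1.22. The lowest value was that of Rpl15 at 0.47 and the highest that of Rpl3 at 2.73. Without Rpl3, the values of the other 76 core genes had an SD of 0.189, while the median SE of a single core gene was 0.097. The libraries of the groups did not overlap for 84 members, 83 of them higher in the knockouts, where 53.4% of all genes were so separated. The 4 members whose groups overlapped were Rpl22l1, Rpl39l, Rps4l and Rpl32l.

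**Figure D1:**
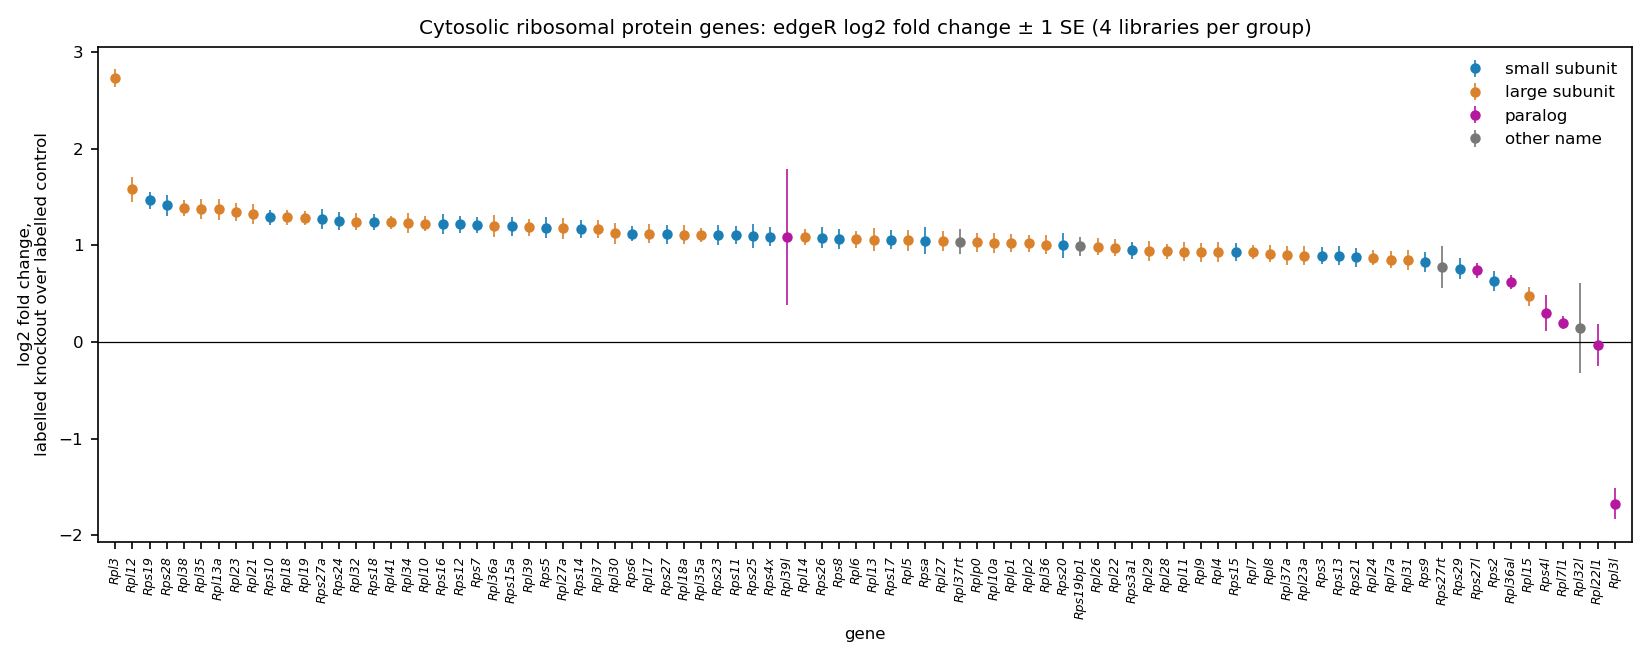
The log2 fold change of each of the 88 members (edgeR, labelled knockout over labelled control, 4 libraries per group) is plotted with 1 SE, in order of size and coloured by class. Core genes form a plateau near 1, with Rpl3 above it at 2.73, and the low end is made up largely of paralogs, down to Rpl3l at -1.67.

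**Figure D2:**
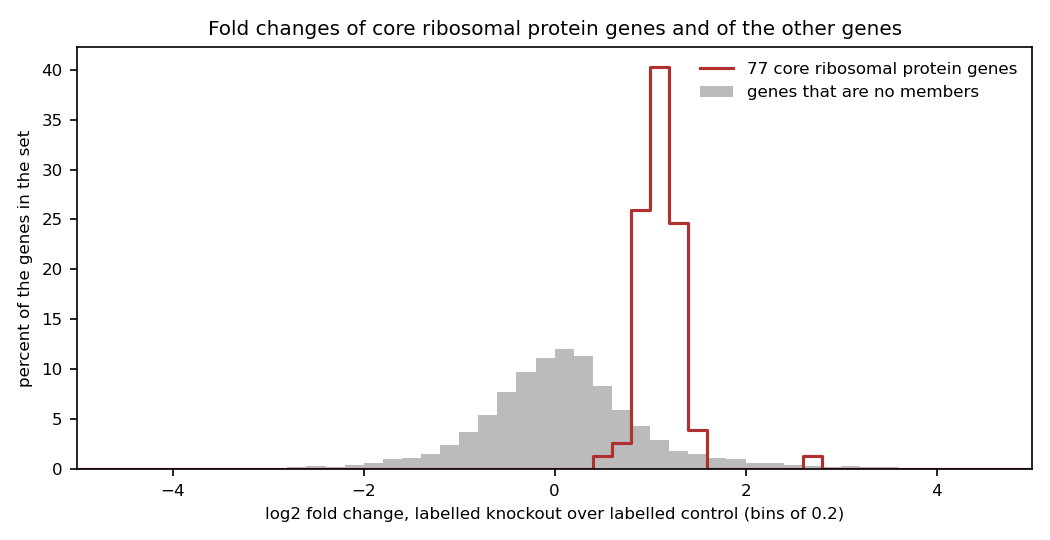
Log2 fold changes in bins of 0.2 are shown as a percent of the 77 core genes (red line) and of the genes that are no members (grey bars). The core genes lie from 0.47 to 2.73, to the right of the centre of the other genes.

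The same was visible in each library as a share of its counts. The 88 members took 0.982% ± 0.076 of all counts in the controls, from 0.882% to 1.07%, and 3.14% ± 0.113 in the knockouts, from 3.04% to 3.29% (SD, n = 4 each). No control share reached the lowest knockout share. A share depends on the rest of the library, and muscle fibre transcripts took less of it in the knockouts. TMM factors, which correct for this, were 0.747 to 0.844 across control libraries against 1.19 to 1.33 across knockout libraries. The large subunit genes had 1.40 to 1.45 times the counts of the small subunit genes in the controls and 1.45 to 1.46 times in the knockouts. On the TMM-scaled log2 CPM scale the core genes averaged 6.78 to 7.18 across control libraries against 8.07 to 8.17 across knockout libraries. Control replicate 4 was the lowest of the controls for 76 of the 77 core genes. Without it the median log2 fold change of the members was 0.99 in place of 1.06.

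**Figure D3:**
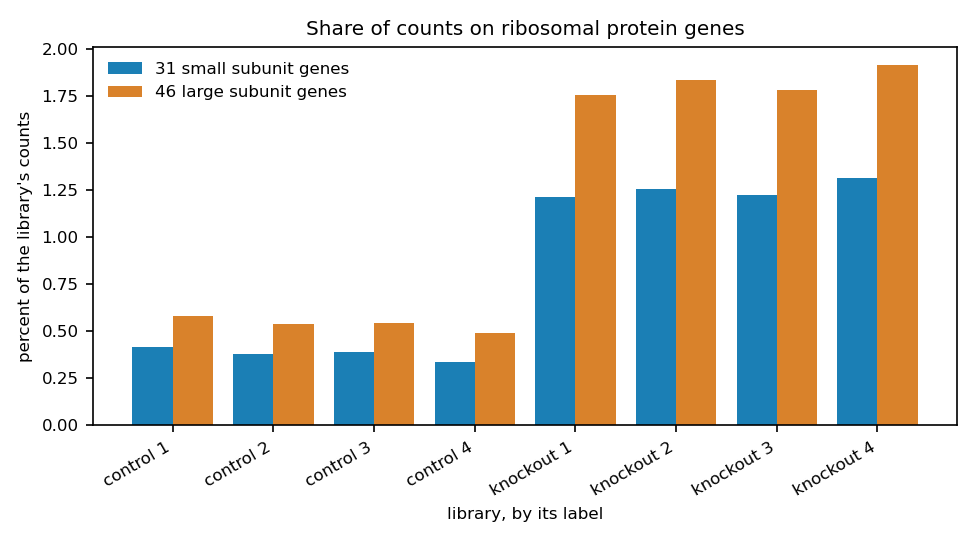
Bars give the percent of each library's counts that fell on the 31 small subunit genes (blue) and the 46 large subunit genes (orange), for the 8 libraries by label. All 4 libraries labelled knockout stand above the 4 labelled control in both subunits.

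The mRNAs for the large subunit's stalk, the arm that recruits elongation factors, were all higher. Rplp1, which with Rplp2 forms the mobile tip, was the most abundant member per length, at 661 ± 75.7 FPKM (fragments per kilobase of exon, scaled to library size) in the controls and 1306 ± 46.9 FPKM in the knockouts (SD, n = 4 each). Of the 4 stalk genes, Rplp0, Rplp1 and Rplp2 had log2 fold changes of 1.03, 1.03 and 1.02. Rpl12, whose protein sits at the base of the stalk, had 144.0, 115.7, 136.3 and 92.6 CPM across control libraries 1 to 4 against 362.1, 340.0, 386.1 and 373.9 CPM across knockout libraries 1 to 4. The groups were far apart, and its log2 fold change of 1.58 ± 0.129 (SE, edgeR adjusted p = 4.906e-06) was the largest of any core gene but Rpl3. The span of Rpl12 overlaps that of the small nucleolar RNA gene Snora65.

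Rpl5 and Rpl11, whose proteins bind 5S rRNA and, when free, restrain the p53 ligase MDM2, were higher by 1.05 and 0.94. All 8 listed genes for proteins that line or ring the peptide exit tunnel were higher, from Rpl31 at 0.85 to Rpl35 at 1.38, with Rpl19 at 1.28, Rpl39 at 1.19, Rpl17 at 1.12, Rpl26 at 0.99, Rpl4 at 0.93 and Rpl23a at 0.89. Among 4 genes for the mRNA entry and decoding region, Rps23, which lies at the decoding site, was higher by 1.11, Rps15 by 0.93, Rps3 by 0.89 and Rps2 by 0.63. All of these were past the edgeR threshold. Rps6 codes for the protein whose phosphorylation is used as a readout of mTOR complex 1. It had 72.6, 64.4, 70.4 and 59.6 CPM across control libraries against 145.4, 135.5, 153.6 and 145.5 CPM across knockout libraries. No knockout library fell to the level of a control, with a log2 fold change of 1.12 ± 0.079 (SE, edgeR adjusted p = 1.959e-06). These counts are of its mRNA and hold nothing on phosphorylation.

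After Rpl3 and Rpl12, the largest changes were those of Rps19 (1.47), Rps28 (1.41) and Rpl38 (1.39), the last known for a role in translating Hox mRNAs. Rps19 is the gene most often mutated in Diamond-Blackfan anaemia, and it had 77.8, 65.0, 66.8 and 58.1 CPM across control libraries against 183.6, 179.4, 190.9 and 185.6 CPM across knockout libraries. The smallest among the core genes were those of Rpl15 (0.47), Rps2 (0.63) and Rps29 (0.76). Rpl15 had 113.7, 98.7, 107.6 and 81.6 CPM across control libraries against 136.7, 131.7, 146.6 and 142.0 CPM across knockout libraries. The groups did not overlap, and the change of 0.47 ± 0.100 (SE) was past the threshold (edgeR adjusted p = 0.0024). Without control replicate 4 it was 0.38.

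Since nearly all members moved together, the libraries were also scaled on the 88 members alone, so that a member is compared with the others. This scaling was chosen after seeing the data. On it, 64 of the 77 core genes were not past the threshold, while 9 members were above the common change and 9 below it. On this scale 3.39% of all genes were higher and 73.4% were past the threshold in either direction, most of them lower. Above it were Rpl3, Rpl12, Rps19, Rps28, Rpl38, Rpl35, Rpl13a, Rpl23 and Rpl21. Below it were 4 core genes, Rpl15, Rps2, Rps29 and Rps9, and the 5 paralogs Rpl3l, Rpl22l1, Rpl7l1, Rpl36al and Rps27l. Of these, 6 and 7 stayed past the threshold when any 1 library was left out and when libraries were scaled on the members' summed counts. The departures of core genes other than Rpl3 were small, from -0.60 for Rpl15 to 0.52 for Rpl12 on the log2 scale, against 1.64 for Rpl3 and -2.74 for Rpl3l.

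The order of the core genes changed little. Across the 77 genes, the log2 mean FPKM in the controls and in the knockouts were related with Pearson's r = 0.959 and Spearman's rho = 0.962, as a description over genes that share the same 8 libraries. A gene's exon width and shared stretches are fixed and enter both values, which by itself makes such correlations high. The log2 fold change of a core gene had a rho of -0.11 with log2 exon width and of -0.29 with log2 control FPKM. With the trend over exon width in all genes removed, the members' median log2 fold change was 0.89 in place of 1.06. After Rplp1, the next highest per length in the controls were Rps2 at 425 ± 55.4 FPKM and Rpl3l at 405 ± 48.3 FPKM. In the knockouts Rpl3l ranked 75 of 88. The lowest in the controls were Rps4l at 3.66 FPKM, Rpl32l at 0.524 FPKM and Rpl39l at 0.362 FPKM. Reads that map to several places had been left out, and only 36.0% of the 75-base stretches of Rpl3's transcripts occurred in no other annotated transcript, against 100% for Rpl3l. The median over members was 68.9%, so levels between genes can be lower bounds to differing degrees. Some stretches are shared with a gene whose span overlaps, such as Fam69a for Rpl5, and need not map to several places. A fold change of 1 gene is not affected by a share that is the same in all libraries. Duplicate pairs had also been dropped, and their share in each library is not given. Among the 16 members with at least 90% unique stretches, 13 were higher and 1 lower.

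Rpl3 and its muscle paralog Rpl3l moved in opposite directions. Rpl3l had 8486, 9895, 9747 and 8420 counts across control libraries 1 to 4 against 5013, 3335, 6339 and 4572 across knockout libraries 1 to 4. The knockout libraries all lay beneath the lowest control, and the log2 fold change was -1.67 ± 0.162 (SE, edgeR adjusted p = 1.453e-05), a level of 0.314 times that of the controls. Rpl3 had 532, 564, 481 and 620 counts across control libraries against 6111, 5470, 5609 and 6993 counts across knockout libraries. The groups lay far apart, and the log2 fold change was 2.73 ± 0.092 (SE, edgeR adjusted p = 5.782e-08), a 6.62-fold rise. No other member changed by as much in either direction. The fall of Rpl3l was close to that of the 10 muscle fibre markers, whose median log2 fold change was -1.71, with 8 lower and 1 higher. Whether Rpl3l fell apart from fibre transcripts in general was not tested.

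Within a library the ratio of the pair does not depend on scaling. The log2 ratio of Rpl3l to Rpl3 counts was 3.99, 4.13, 4.34 and 3.76 across control libraries against -0.29, -0.71, 0.18 and -0.61 across knockout libraries. All controls held several times more Rpl3l than Rpl3 counts, whereas 3 of the 4 knockouts held more Rpl3 counts. The ratio differed by -4.42 on the log2 scale, or 21.3-fold (exact permutation test over 70 assignments, two-sided, p = 0.0286, the smallest that 4 against 4 libraries allow, adjusted p = 0.04 over 7 pairs). For the ratios, which cannot reach 0.01, the threshold was an adjusted p under 0.05. Per length, Rpl3l made up 92.1% to 94.5% of the pair's summed FPKM in control muscle, but 34.2% to 49.1% in knockout muscle. The sum of both was 364 to 468 FPKM across control libraries against 272 to 336 FPKM across knockout libraries. These levels can count Rpl3 too low by its shared stretches, and the direction of the sum rests on how much was lost. The shares are of single stretches, whereas read pairs were counted, and either read of a pair can place it. Dividing by the shares may therefore correct too much, so the direction of the sum was not settled. With each gene's FPKM divided by its share of unique stretches, which was tried after seeing the data, the sum was 416 to 525 FPKM across control libraries against 590 to 664 FPKM across knockout libraries. The share of Rpl3l was then 80.7% to 86.2% in control muscle and 15.8% to 25.8% in knockout muscle. Each gene's divisor is the same in all libraries, so the relative fall of the ratio of Rpl3l to Rpl3 could not change. Satellite cells are the stem cells of muscle. Of their 5 markers Myf5 was higher, Calcr and Chodl lower and Pax7 and Myod1 not past the threshold, with sums of 32.9 to 44.2 CPM in control muscle and 24.2 to 42.3 CPM in knockout muscle. Their part in the shift of the pair was not tested.

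**Figure D4:**
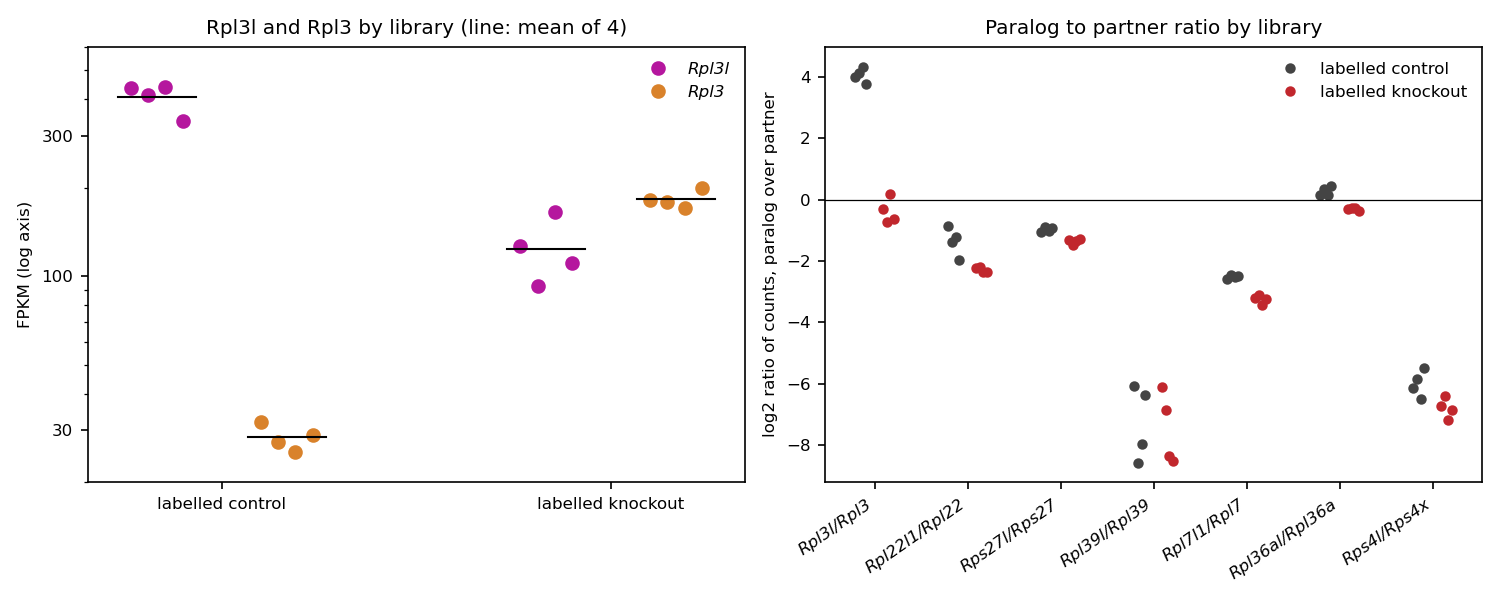
Left, FPKM of Rpl3l and Rpl3 in each library (points, log axis) with the mean of 4 (line). Right, log2 ratio of counts of each paralog to its partner in each library, with controls in grey and knockouts in red. Rpl3l to Rpl3 falls from about 4 to about 0, while the other pairs move by less than 1.

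The other paralogs rose by less than their partners or were not past the threshold. Rpl22l1, the paralog of the RNA-binding protein gene Rpl22, had 64.3, 40.9, 53.3 and 25.8 CPM across control libraries against 46.2, 42.9, 45.3 and 45.6 CPM across knockout libraries. The controls spread on both sides of the knockouts, and the log2 fold change was -0.03 ± 0.22 (SE, edgeR adjusted p = 0.917), while Rpl22 rose by 0.97 ± 0.087 (SE, edgeR adjusted p = 8.487e-06). Their log2 ratio was lower by 0.93 in the knockouts, with groups that did not overlap. It was -0.86, -1.36, -1.21 and -1.97 across control libraries against -2.23, -2.20, -2.35 and -2.35 across knockout libraries.

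Rps27l, a p53-responsive paralog of Rps27, rose by 0.74 ± 0.076 (SE) and Rps27 by 1.12 ± 0.096 (SE), and their log2 ratio was lower by 0.38. Rpl36al, an autosomal retrocopy of the X-linked Rpl36a, rose by 0.62 ± 0.070 (SE) and Rpl36a by 1.20 ± 0.113 (SE). Their log2 ratio of counts was 0.16, 0.36, 0.16 and 0.47 across control libraries against -0.28, -0.27, -0.28 and -0.36 across knockout libraries. Per length, Rpl36al stood at 1.06 to 1.31 times the FPKM of Rpl36a in control muscle and at 0.734 to 0.785 times in knockout muscle. Only 15.4% of the 75-base stretches of Rpl36a were unique, against 79.8% for Rpl36al. Divided by these shares the ratio was 0.205 to 0.252 in control muscle and 0.142 to 0.151 in knockout muscle. Which gene was the higher in control muscle thus rests on the shared reads. As above, the shares are of single stretches and not of read pairs. Each divisor is the same in all libraries, so the relative fall of the ratio could not change. Their coding sequences are 87.7% identical over 318 bases, with a longest common run of 24. Rpl7l1, a protein of pre-ribosomes, had a log2 fold change of 0.20 ± 0.068 (SE, edgeR adjusted p = 0.0282), not past the threshold, against a rise of 0.93 ± 0.072 (SE) for Rpl7, and their ratio was lower by 0.73. For these 4 pairs, Rpl22l1 included, the exact permutation test gave p = 0.0286 (adjusted p = 0.04), and the groups did not overlap.

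With library totals in place of TMM factors, which moved the median of all genes to 0.73, Rpl7l1 (0.87, edgeR adjusted p = 9.506e-06) and Rps4l (0.97, edgeR adjusted p = 0.002687) were higher past the threshold and Rpl22l1 had a log2 fold change of 0.65. The ratios do not depend on this choice.

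The last pairs rested on few counts. Rps4l to Rps4x was lower by 0.79 on the log2 scale, with overlapping groups (exact permutation test, p = 0.0571, adjusted p = 0.0667). Rps4l itself had a log2 fold change of 0.30 ± 0.186 (SE, edgeR adjusted p = 0.187), and its span overlaps that of Tmtc1. Rpl39l, a paralog known from testis, had 7, 1, 2 and 6 counts across control libraries against 29, 16, 6 and 6 across knockout libraries, and its ratio to Rpl39 differed by -0.22 (exact permutation test, p = 0.714). A change in Rpl39l was not detectable at this depth. A floor of 3 counts was 0.189 to 0.242 CPM across control libraries against 0.119 to 0.137 CPM across knockout libraries, close to its level in several libraries. The retrogenes and the paralog-like Rpl32l were also low. Rpl37rt was higher (1.04 ± 0.128, SE, edgeR adjusted p = 7.469e-05), Rps27rt had a log2 fold change of 0.78 ± 0.218 (SE, edgeR adjusted p = 0.0113) and Rpl32l of 0.14 ± 0.465 (SE, edgeR adjusted p = 0.806). Only 9.7% of the 75-base stretches of Rps27rt were unique, most of the others being shared with Rps27, so its counts are uncertain.

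The symbol rule leaves out genes for ribosomal proteins with other names. Of these, Rack1, the scaffold on the head of the small subunit, rose by 0.99 and Fau, the precursor of S30, by 0.91. Among the genes that build the ribosome, 107 were in the table. Beside 23.6% of all genes, 80 of these were higher, 1 was lower and 26 were not past the threshold, with a median log2 fold change of 0.60. The RNA helicase gene Ddx51 rose most (2.25), from 11.01 ± 0.925 to 52.4 ± 7.43 CPM (SD, n = 4 each), followed by Utp18 (1.45), a part of the small subunit processome. Bms1, a GTPase of the same machinery, was the gene that fell (-0.35). RNA polymerase I, which transcribes the rRNA precursor, had 5 of 15 genes higher and 1 lower, with a median of 0.19. Over all genes 23.6% were higher and 21.1% lower. Taf1d (1.58) and Polr1c (1.02) rose most, and the gene that fell was that of the terminator protein, Ttf1 (-0.32).

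RNAs that carry small nucleolar RNAs in their introns and are themselves TOP transcripts in part rose in 6 of 8 cases, with a median of 1.74. Of all genes, 23.6% were higher and 21.1% lower. Snhg15 (2.96) and Snhg12 (2.43) changed most, both from low levels of 0.797 and 2.78 CPM in the controls. Of 17 other mRNAs known to carry a TOP sequence, 11 were higher, 0 were lower and 6 were not past the threshold, with a median of 0.42, below that of the core genes. At an unadjusted p under 0.05 in edgeR, 16 were higher and 0 lower, and DESeq2 called 0 lower. Eef1a1, for the elongation factor of non-muscle and developing cells, rose by 2.94, from 373 ± 52.5 to 2867 ± 171 CPM (SD, n = 4 each), and Btf3, a subunit of the nascent polypeptide-associated complex, by 1.34.

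Of 13 listed genes known to act on ribosomal protein mRNAs, 2 were higher, 4 lower and 7 not past the threshold, with a median of -0.05. Over all genes 23.6% were higher and 21.1% lower. Counts in this and the following short lists therefore mark no trait of them. Myc, a transcription factor that drives ribosome production, rose by 2.98, from 3.27 ± 0.240 to 25.9 ± 3.08 CPM (SD, n = 4 each), and Eif4ebp1, for an inhibitor of cap-dependent translation that mTOR switches off, by 2.68. Eif4ebp2 fell by 0.84 on the log2 scale and Larp1b by 0.55. Of 6 chaperone genes dedicated to single ribosomal proteins, Pdcd2 (0.69) and Grwd1 (0.55) were higher and Heatr3 (-0.48) and Bccip (-0.39) lower, with a median of 0.09. The median over 12 ribosome quality control and turnover genes was 0.12, with 3 higher and 2 lower. Among these, Nufip1, a receptor for autophagy of ribosomes, rose by 0.83 and Gcn1l1, which senses colliding ribosomes, by 0.45, while the stress granule gene G3bp2 fell by 0.95 and Usp10 by 0.32. With library totals in place of TMM factors, 8 of the 10 genes called lower in these lists had a positive log2 fold change, the exceptions being Eif4ebp2 and G3bp2.

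**Figure D5:**
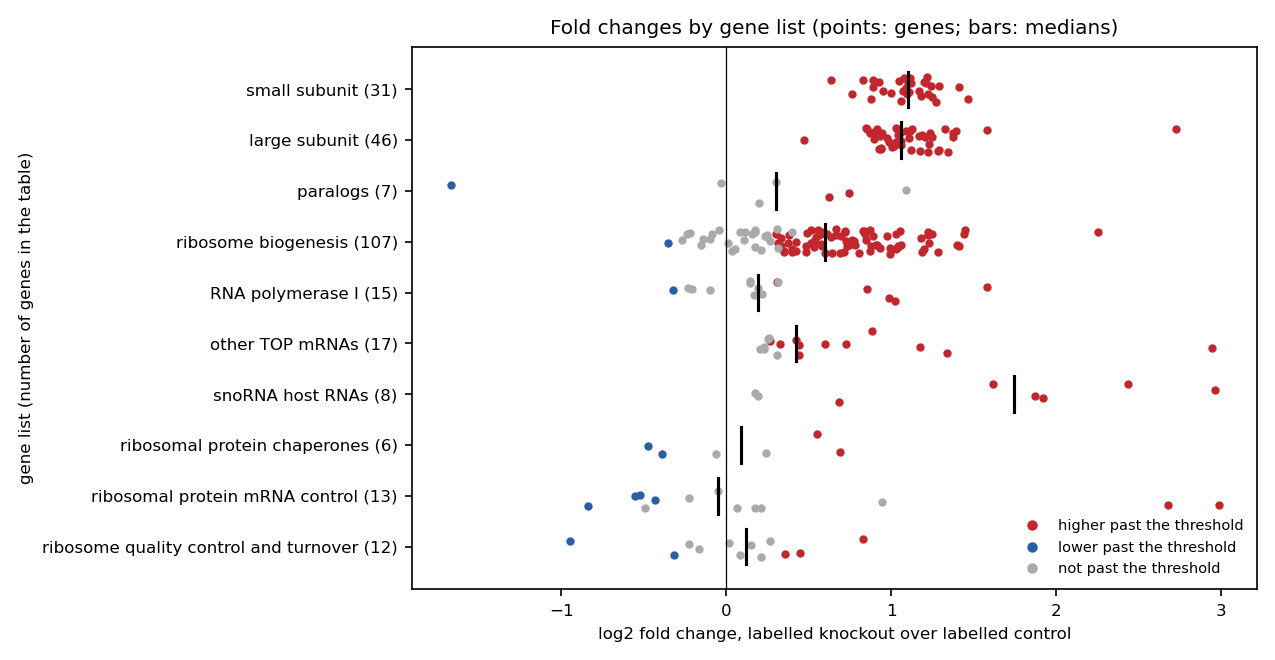
Each point is a gene of a list, placed at its log2 fold change (edgeR, labelled knockout over labelled control), red where higher and blue where lower past the threshold and grey where not past it. The black bar is the list's median, which is 1.10 for the small subunit, 1.06 for the large subunit, 0.60 for ribosome biogenesis and -0.05 for the genes that control ribosomal protein mRNAs.

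The pyrimidine run was looked for in all members. In RefSeq, 67 of the 88 members had a promoter entry. In the window from 10 bases before to 20 after a start, 46.3% of them held a C followed by at least 6 pyrimidines on the gene's strand, against 17.1% of 10678 tested genes with an entry. The median log2 fold change was 1.12 over the 31 members with such a run and 1.04 over the 36 without. Among the tested genes that are no members, 399 of 1799 with a run and 2114 of 8812 without were higher. Both kinds are in the sequences above. Rpl15 has the longest run of those shown, and Rpl12 has none in the bases shown, which end inside a pyrimidine stretch. A RefSeq start can differ from the start of the counted mRNA, so members without a run here may still carry one. The part of the TOP sequence in the fold changes was not tested. The ETS-like motif CCGGAAGT stood on either strand of the 300 bases in 17.9% of the members and 8.4% of the tested genes, the E-box CACGTG in 9.0% and 11.6%, and TGATGNAA, the motif of ATF4 target genes, in 0% and 2.8%. These matches are letters in a window and show no binding.

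Markers of other cells were set beside these results. By edgeR 23.6% of all genes were higher and 21.1% lower. Of 11 macrophage markers 2 were higher by edgeR, 5 by DESeq2 and 7 at an unadjusted p under 0.05 in edgeR, with a median log2 fold change of 0.86 and a summed level of 80.3 to 215.5 CPM across control libraries against 181 to 341 CPM across knockout libraries. The 6 proliferation genes summed to 2.75 to 6.94 CPM and 7.97 to 23.6 CPM. Of these 1 was higher by edgeR, 5 by DESeq2 and all 6 at an unadjusted p under 0.05 in edgeR, with a median log2 fold change of 1.59. Of 7 adipocyte markers 0 were past the edgeR threshold, 1 had an unadjusted p under 0.05 and 0 were called by DESeq2, and their sum ranged from 248.9 to 1497 CPM across control libraries against from 712 to 2591 CPM across knockout libraries. Fibroblast markers were lower in 5 of 8 cases and endothelial markers in 5 of 6, and no red blood cell or Schwann cell gene was past the edgeR threshold (0 and 1 at an unadjusted p under 0.05, none by DESeq2). Of 5 neutrophil and 8 lymphocyte markers, 3 and 1 were in the table, and S100a8 among them rose from 0.366 to 22.8 CPM. Cd3e, the lymphocyte gene in the table, had 13, 17, 25 and 3 counts across control libraries against 7, 3, 2 and 4 across knockout libraries. Its groups overlapped close to the floor of 3 counts, although edgeR called it lower (adjusted p = 0.004979). Their part in the rise of the ribosomal protein genes was not tested. With the adipocyte markers as a covariate the members' median was 1.11, with 81 members higher and 1 lower.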

How the data were processed

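RNA of QF muscle was sequenced from 4 mice labelled knockout and 4 labelled control. Strand-specific libraries of polyadenylated RNA (NEBNext Ultra II Directional) were read as pairs of 75 bases. The deposited raw counts are read pairs per gene: the authors demultiplexed with bcl2fastq 2.20.0.422, trimmed with cutadapt, aligned to GRCm38 with STAR 2.5.4b and counted exonic pairs with Rsubread. Pairs that were duplicates, chimeric, of low mapping score or mapped to several places had been dropped. Genes with fewer than 50 reads in total had been left out by the authors. The release of the annotation and the use of strand in counting are not given in the sources used here. The deposited FPKM values, which the authors derived from these counts, were used only for levels between genes. Exon width, a deposited column that is no measurement of a sample, was used for a trend over genes. The deposited DESeq2 columns of fold changes and p-values were not used.

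Counts were scaled with TMM and tested in edgeR 4.0.16 (R 4.3.3) with group as its single term, adjusting p-values by Benjamini-Hochberg over 14012 genes. The SE was taken from the quasi-likelihood F statistic. Paralog ratios used log2 of counts plus 0.5, and a two-sided exact permutation test in scipy 1.17.1, with a threshold of 0.05 on the adjusted p. The edgeR step was tested on simulated data. Uniqueness of 75-base stretches was counted against all GENCODE M21 transcripts, processed pseudogenes included, and coding sequences were aligned with Biopython 1.88. The members and all gene lists were chosen with earlier results of these data known. The genes named are the paralogs and partners, the 5 largest and 5 smallest changes, those lower or not past the threshold, the 3 most and 3 least abundant per length, 4 structural lists, Rps6, Rack1, Fau and, in each other list, up to 2 genes with the largest change in each direction among those past the threshold. The core genes that departed from the common change, S100a8, Cd3e, Fgf21 and Gdf15 were named after their values were seen. A result that this rule would name is not reported here. Same-numbered libraries deviated from their group means with correlations of 0.118, 0.003, 0.422 and 0.138, not all above 0.1, so the replicates were not paired. Alternatives covered scaling, filters, DESeq2 1.42.0, covariates, thresholds, pseudocount and leaving out each library.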

Additional observations from a re-analysis of the deposited data

Results flagged for a closer look

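Of 158 groups of 4 libraries tested, 7 held a library whose gap to the nearest other, as a part of the group's range, passed Dixon's critical value, and about 5% do so by chance. Control replicate 4 was low for Rps2, at 339.2 CPM against 440.6 to 451.8 CPM in the other controls, and for Rps29, at 80.0 CPM against 110.8 to 115.6 CPM. Knockout replicate 2 was low for Rpl11, at 213.5 CPM against 219.0 to 219.8 CPM, and for Rpl32l, at 0.183 CPM against 0.375 to 0.413 CPM, the latter from 4 counts. Knockout replicate 3 was low for Rpl37rt, at 7.43 CPM. Knockout replicate 4 was low for Heatr3, at 35.5 CPM, and for the log2 ratio of Rpl36al to Rpl36a, at -0.36.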

How the results depend on the processing

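The counts of 81 members higher and 1 lower stayed within 1.5 times under every alternative, at 81 to 82 and 1 when a library was left out, and all 77 core genes kept an adjusted p under 0.01 in each refit (largest 0.009, for Rpl15). With a fold change of at least 1.5 also required, 80 were higher, Rpl15 being left out. Library totals alone moved the median of the members to 1.74, but also that of all genes to 0.73, with 8498 genes higher and 873 lower. Above the median of all genes, the members stood at 0.99 with TMM and 1.002 with totals. A change of scaling shifts all genes by nearly the same amount, so this distance could hardly change. Leaving out a library gave a median of 0.99 to 1.13. Removing the trend over exon width in all genes gave 0.89. The members with at least 90% unique stretches, a choice not planned beforehand, had a median of 0.95. Relative to the members, scaling on summed counts put 16 in place of 9 above the common change, and leaving out a library gave 6 to 12 above and 7 to 10 below. With library totals 84 members were higher, as Rpl7l1 (0.87), Rps4l (0.97) and Rps27rt (1.45) also passed the threshold. Rpl22l1, never past it, turned positive with the adipocyte covariate (0.0704), library totals (0.65), the replicate block (0.0353), upper-quartile factors (0.0044), and without control replicates 1 (0.17) or 3 (0.05), and ranged from -0.23 to 0.17 when a library was left out. Without 1 library the smallest exact p is 0.0571, so no ratio could pass the 0.05 set for ratios. The differences were then -4.59 to -4.30 for Rpl3l, -1.14 to -0.77 for Rpl22l1, -0.41 to -0.33 for Rps27l, -0.78 to -0.67 for Rpl7l1, -0.63 to -0.53 for Rpl36al, -0.96 to -0.62 for Rps4l and -0.67 to 0.17 for Rpl39l. With the replicate block, where 4 pairs allow no p below 0.125, the differences of -4.42, -0.93, -0.38, -0.73 and -0.59 (Rpl3l, Rpl22l1, Rps27l, Rpl7l1 and Rpl36al) were not past it either. The block left 81 members higher and 1 lower and changed the call of no paralog or partner. It was not run for the departures from the common change or the other lists. Dividing FPKM by the share of unique stretches turned the difference of the summed Rpl3l and Rpl3 FPKM between knockouts and controls from -127.5 to 146.3. The shares are of single stretches and not of read pairs, so the direction of this sum was not settled. Outside the 20 most abundant genes, the members held 1.58% of control counts and 3.94% of knockout counts.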
